A study of Mus musculus with 8 samples.

Results

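The cerebellum of SCA17 knock-in (KI) mice was compared with that of wild-type (WT) mice, over every gene of the array that could be named. Spinocerebellar ataxia type 17 (SCA17) is an inherited ataxia in which the glutamine repeat of the TATA-box-binding protein TBP is too long. A gene was included when the platform annotation gave a probe set that gene's symbol alone, and the brightest such probe set, by its mean over all 8 arrays, stood for the gene. This gave 19938 genes from 35556 probe sets, and 13641 of them were bright enough in the cerebellum to be tested. The groups were KI cerebellum (replicates 94 and 97) and WT cerebellum (replicates 95 and 96), each of 2 arrays from mice aged 3 months with no treatment named. The series also holds 4 arrays of the tibialis anterior muscle of the same genotypes and numbers. RNA was taken from 3 mice of each genotype per the labels, and no source used here says which mouse an array measured or whether RNA was pooled. No source used here gives the repeat length, strain or sex. Values are RMA log2 levels, so a difference of 1 is a 2-fold change, and p-values rest on the spread between these arrays, whose number limits the precision.

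TBP places RNA polymerases at their start sites and is present in all cells, while the neurons most affected in SCA17 are the Purkinje cells, the output neurons of the cerebellar cortex. Granule cells, the most numerous cerebellar neurons, send their axons to them. The type I interferon response, a defence against viruses that neurons, glia and vessels can all mount, runs from sensors of foreign nucleic acid to interferon ligands, their receptors, transcription factors such as IRF9 and a large set of induced genes. IRF9 takes part in binding the interferon-stimulated response element, a pair of GAAA repeats, in promoters.

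In limma, 28 of the 13641 genes (0.205%) had an adjusted p under 0.05. Higher in KI were 20 genes (0.147%), and 15 of these belong to the interferon lists; lower in KI were 8 genes (0.0586%), none of them on those lists. Promoters of the interferon genes that rose most are printed first, because it is on these stretches that the response element can be read. Each runs from 250 bases before to 50 after the gene's start in RefSeq (GRCm38.p6), 5′ to 3′ on the gene's own strand. Capitals mark the letters searched, which are GAAA, then NN for any bases, then GAAA again, or the reverse complement, TTTC, NN and TTTC; matches may overlap. The 6 with a match are Ifit1 (chr19:34640639-34640938, plus strand), Ifit3 (chr19:34583279-34583578, plus), Ifitm3 (chr7:141010695-141010994, minus), Trim30a (chr7:104465144-104465443, minus), Ddx58 (chr4:40239776-40240075, minus) and Gbp3 (chr3:142559794-142560093, plus). Lgals3bp (chr11:118401910-118402209, minus) and Oasl2 (chr5:114896684-114896983, plus) are the 2 with the largest rise and no match.
Ifit1: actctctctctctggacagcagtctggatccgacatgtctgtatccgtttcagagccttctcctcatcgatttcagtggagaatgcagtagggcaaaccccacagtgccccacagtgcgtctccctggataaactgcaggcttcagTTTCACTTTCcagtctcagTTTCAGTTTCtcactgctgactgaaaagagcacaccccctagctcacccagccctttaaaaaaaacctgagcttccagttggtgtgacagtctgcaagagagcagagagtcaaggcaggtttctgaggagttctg
Ifit3: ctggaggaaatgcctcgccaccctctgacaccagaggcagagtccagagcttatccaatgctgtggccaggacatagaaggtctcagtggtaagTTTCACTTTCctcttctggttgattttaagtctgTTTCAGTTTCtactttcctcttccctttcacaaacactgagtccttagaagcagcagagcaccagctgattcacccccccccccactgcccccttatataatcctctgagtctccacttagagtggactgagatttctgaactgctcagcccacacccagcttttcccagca
Ifitm3: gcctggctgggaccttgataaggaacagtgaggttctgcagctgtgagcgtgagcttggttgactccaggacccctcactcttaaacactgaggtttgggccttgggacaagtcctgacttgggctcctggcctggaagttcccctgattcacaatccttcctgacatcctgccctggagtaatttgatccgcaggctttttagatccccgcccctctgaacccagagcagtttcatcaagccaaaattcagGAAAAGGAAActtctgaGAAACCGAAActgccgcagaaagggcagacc
Trim30a: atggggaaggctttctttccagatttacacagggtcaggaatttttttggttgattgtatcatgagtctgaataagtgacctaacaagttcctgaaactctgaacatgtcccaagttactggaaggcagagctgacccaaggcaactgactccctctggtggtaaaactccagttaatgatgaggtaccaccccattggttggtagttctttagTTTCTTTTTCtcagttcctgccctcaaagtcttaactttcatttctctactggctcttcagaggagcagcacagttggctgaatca
Ddx58: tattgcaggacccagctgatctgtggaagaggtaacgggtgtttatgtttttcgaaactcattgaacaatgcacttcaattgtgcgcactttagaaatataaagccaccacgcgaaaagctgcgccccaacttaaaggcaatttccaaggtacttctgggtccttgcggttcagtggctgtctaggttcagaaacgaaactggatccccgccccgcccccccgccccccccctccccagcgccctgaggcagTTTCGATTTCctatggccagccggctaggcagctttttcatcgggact
Gbp3: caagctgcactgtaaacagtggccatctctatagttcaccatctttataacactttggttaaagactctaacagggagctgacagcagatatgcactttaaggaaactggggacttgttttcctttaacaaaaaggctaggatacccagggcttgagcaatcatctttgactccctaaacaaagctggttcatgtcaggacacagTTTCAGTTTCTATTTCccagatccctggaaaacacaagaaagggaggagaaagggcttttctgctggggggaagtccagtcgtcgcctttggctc
Lgals3bp: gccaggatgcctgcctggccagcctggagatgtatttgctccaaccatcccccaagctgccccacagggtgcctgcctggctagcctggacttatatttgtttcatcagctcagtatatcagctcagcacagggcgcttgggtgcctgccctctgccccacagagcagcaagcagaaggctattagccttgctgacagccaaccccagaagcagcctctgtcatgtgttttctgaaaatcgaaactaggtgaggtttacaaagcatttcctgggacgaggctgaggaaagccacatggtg
Oasl2: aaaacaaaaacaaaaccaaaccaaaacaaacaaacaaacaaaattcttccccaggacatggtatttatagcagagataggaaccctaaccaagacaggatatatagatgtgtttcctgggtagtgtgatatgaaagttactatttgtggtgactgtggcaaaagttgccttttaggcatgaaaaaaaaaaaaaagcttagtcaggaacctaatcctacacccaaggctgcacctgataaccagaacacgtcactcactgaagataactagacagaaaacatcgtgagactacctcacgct

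The matches began 104 and 85 bases before the start of Ifit1, 156 and 122 before that of Ifit3, 36 before that of Trim30a, and 45 and 39 before that of Gbp3, where they overlap. In Ifitm3 and Ddx58 they lay just after the start. Of the 20 genes higher in KI, 16 had a window in the table and 10 of these held a match (62.5%). Among the interferon members that rose it was 9 of 12. A match was held by 366 of the 10823 tested genes with a window (3.38%) and 1079 of all 27025 genes with a window (3.99%). Among the 59 interferon members tested with a window it was 22 (37.3%). Ifit1, Gbp3 and Eif2ak2, among the 9, were tested through their KI arrays alone, so these shares are not used as support. None of the 5 genes lower in KI with a window held a match. A match is a description of these letters and not a site shown to be bound. Trim30a has 2 windows in the table, both with a match, and Gbp3 has 2, 1 with a match. Usp18, Rtp4, Ifi27 and Kcnb2 had no window in the table.

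Usp18, the protease that strips ISG15 from proteins and damps the interferon receptor, was at 7.20 and 6.99 on the KI arrays and at 5.01 and 4.83 on the WT arrays. It rose 4.52-fold (log2 difference 2.18 ± 0.14, SE; adjusted p = 0.000639). Ifitm3, a membrane protein that blocks entry of viruses, was at 8.72 and 8.45 in KI and 6.83 and 6.66 in WT. Both KI arrays of either gene stood more than 1 log2 unit above both WT arrays. The difference of Ifitm3 was 1.84 ± 0.13 (SE, adjusted p = 0.000639).

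Oasl2, a relative of the 2′-5′ oligoadenylate synthetases, was at 7.89 and 7.25 in KI and 5.26 and 5.31 in WT. Lgals3bp, a secreted galectin-binding glycoprotein induced by interferon, was at 8.97 and 8.57 in KI and 6.26 and 6.69 in WT. Ifit1, which binds viral RNA at its 5′ end, was at 7.42 and 6.58 in KI and 4.62 and 4.40 in WT. The KI arrays of each of these genes were above the WT arrays, and replicate 94 was the higher KI array, as in 14 of the 20 genes that rose and 47.9% of all tested genes. Ifit1 had the largest difference of the 28 genes. The differences were 2.29 ± 0.19 for Oasl2, 2.29 ± 0.20 for Lgals3bp and 2.49 ± 0.25 for Ifit1 (SE; adjusted p = 0.00261, 0.00263 and 0.00728 in limma).

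The other antiviral effectors that rose were Ifit3, the partner of Ifit1, by 1.93 ± 0.24 log2 units, Rtp4, an interferon-induced chaperone of receptors, by 1.76 ± 0.22, and Trim30a, a RING-domain protein that restrains inflammatory signalling, by 1.55 ± 0.19. Ifi27, a small interferon-induced membrane protein, rose by 1.38 ± 0.14. Eif2ak2, the kinase PKR that halts translation on double-stranded RNA, rose by 0.95 ± 0.12, and Lgals9, galectin 9, by 0.80 ± 0.11 (all ± SE, limma adjusted p from 0.00728 to 0.0235). None of these 6 genes had overlapping genotypes. Ifit3, for example, was at 8.58 and 8.13 in KI and at 6.44 and 6.41 in WT, and Ifi27 at 7.72 and 7.43 against 6.23 and 6.17. Ifit3 and Trim30a have near-identical copies in the genome, and whether their probe sets also read those copies was not tested.

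**Figure D1:**
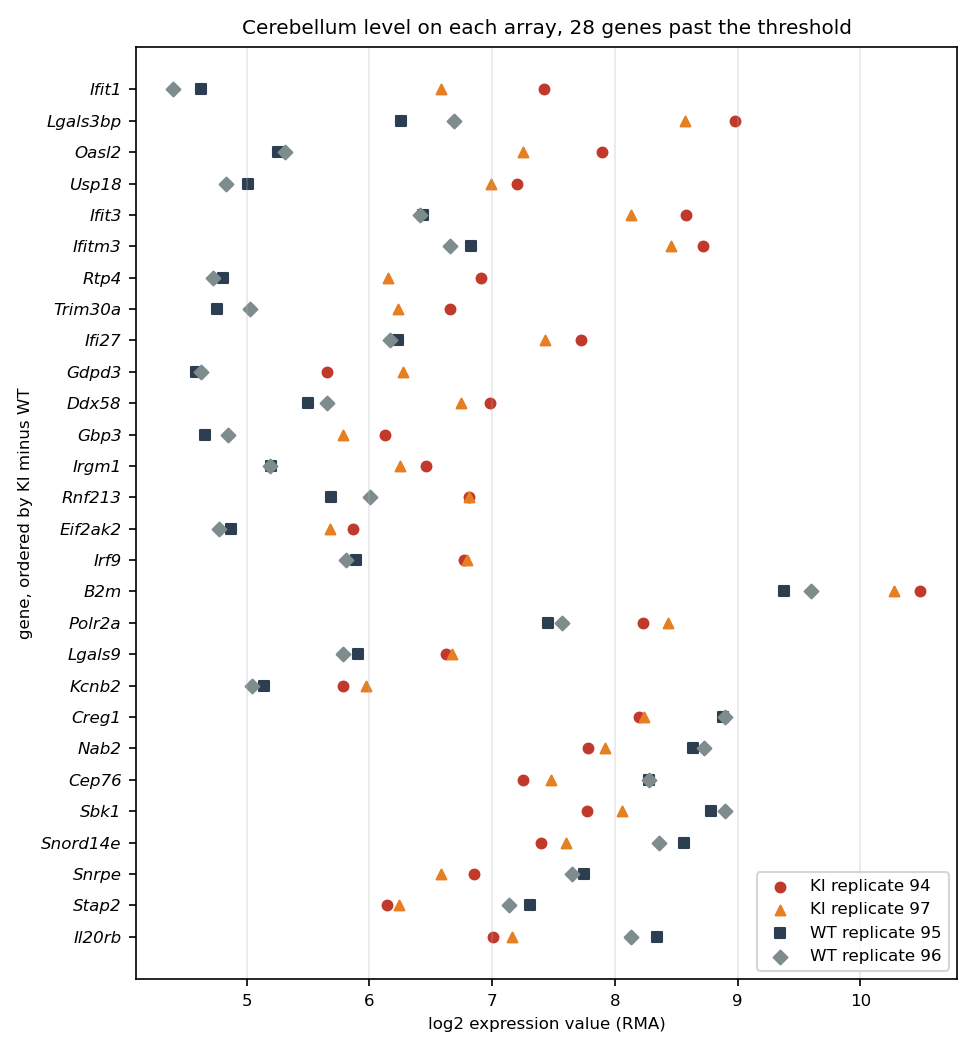
RMA log2 level of the 28 genes that passed an adjusted p of 0.05, one row per gene ordered by the KI minus WT difference, one point per cerebellum array. KI (red and orange) and WT (dark and light grey) do not overlap in any of the 28 rows, as in 35.3% of all tested genes, from Ifit1 at the top (2.49 higher in KI) to Il20rb at the bottom (-1.15).

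A sensor, a pair of GTPases and a transcription factor of the pathway were among the genes that rose. Ddx58, the cytosolic RNA sensor RIG-I, was at 6.98 and 6.75 in KI and 5.50 and 5.65 in WT (difference 1.29 ± 0.14, SE; adjusted p = 0.00924). Irgm1, an immunity-related GTPase acting on membranes of phagosomes, rose by 1.16 ± 0.12 (adjusted p = 0.00728), and Gbp3, a guanylate-binding protein, by 1.21 ± 0.13 (adjusted p = 0.00924). Irf9, a DNA-binding transcription factor of the pathway, was at 6.77 and 6.80 in KI and 5.89 and 5.81 in WT. Its KI arrays lay close together and above both WT arrays, and the difference was 0.93 ± 0.12 (SE, adjusted p = 0.016 in limma).

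Receptors, kinases and ligands of the pathway did not pass the test. The receptor chains Ifnar1 and Ifnar2 differed by 0.02 and 0.09 log2 units, Ifngr1 and Ifngr2 by -0.01 and -0.11, and the kinases Jak1 and Tyk2 by 0.02 and -0.12. Stat2 differed by -0.06 and Irf3, which acts below the sensors, by -0.03. Irf7, the factor that amplifies interferon production, was at 6.10 and 5.70 in KI and 4.52 and 5.12 in WT, a difference of 1.08 ± 0.20 (SE, adjusted p = 0.133). Of the 9 interferon ligand genes with a probe set, 7 were below the 40th percentile on all 4 cerebellum arrays, among them Ifnb1 (3.91 to 4.25), and the 2 tested, Ifna2 and Ifnl2, differed by 0.24 and 0.18 (adjusted p = 0.998 for both).

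The 5 interferon lists together hold 113 genes, of which 98 had a probe set, 70 were tested and 15 passed, all of them higher. Of the 98, 88 had a positive difference, as had 10744 of all 19938 genes (over tested genes alone, 6475 of 13641, or 47.5%). Both KI arrays were above both WT arrays in 61 of the 98, as in 17.8% of all 19938 genes. Of the 49 antiviral effectors with a probe set, all 49 had a positive difference and 44 did not overlap, with a median of 0.52 log2 units against 0.01 over all genes with a probe set. Among the 14 sensors and adaptors 4 did not overlap in that direction, among the 8 inducible GTPases 6, and among the 18 receptor and signalling genes 5. Of the 70 tested, 14 reached the filter on low values through the KI arrays alone, so no count over the tested members is used as support.

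Other interferon members missed the threshold. Oas1b, an oligoadenylate synthetase, differed by 1.23 ± 0.22, and Gbp7, a guanylate-binding protein, by 0.99 ± 0.18 (SE; adjusted p = 0.112 and 0.134). Herc6, the mouse ligase for ISG15, differed by 0.83 ± 0.15 and Sp100, a nuclear body protein, by 0.84 ± 0.20 (SE; adjusted p = 0.118 and 0.344). Ifih1, the sensor MDA5, Oas2, Rsad2 (viperin) and Parp12 differed by 0.60 to 0.75 (adjusted p from 0.135 to 0.551). KI was higher without overlap in all of these, as in 17.8% of all genes with a probe set. Oas1b, Herc6, Sp100, Ifih1, Oas2 and Rsad2 were below the 40th percentile on both WT arrays. They were tested through their KI arrays alone, so their lack of overlap is not used as support. Mx1, a GTPase often used as a marker of the response, was between 3.20 and 3.62 on the 4 arrays and too dim to be tested. Among the effectors with small differences, Oas1a differed by 0.10, Zbp1 by 0.15 and Samhd1 by 0.19.

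**Figure D2:**
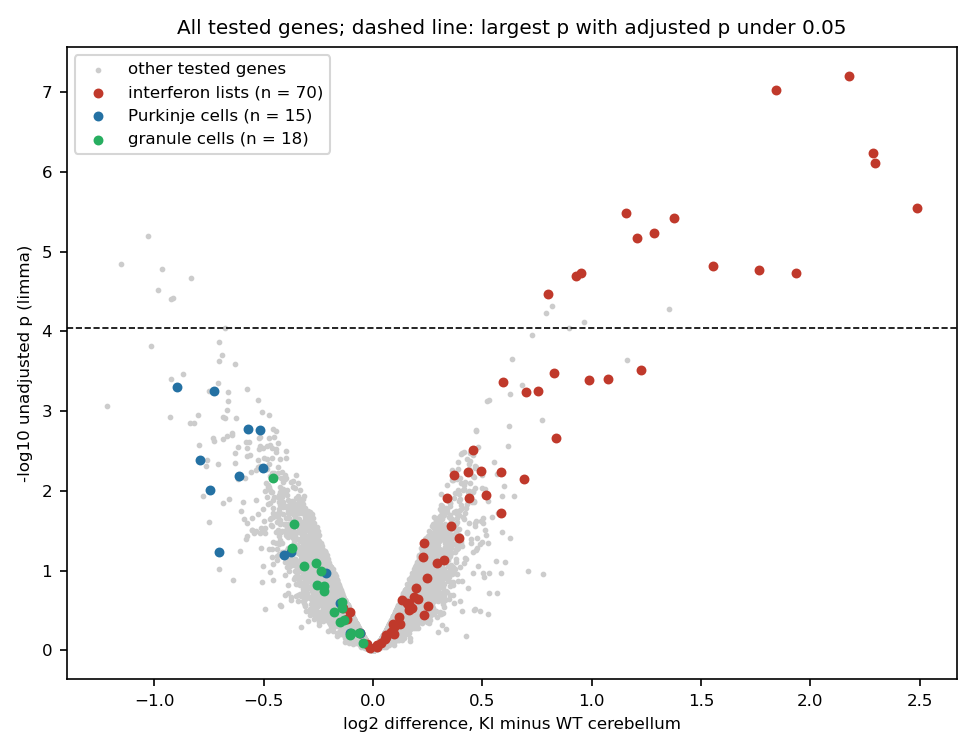
KI minus WT log2 difference (x) against -log10 of the unadjusted limma p (y) for the 13641 tested genes, with the 70 interferon members in red, the 15 Purkinje genes in blue and the 18 granule genes in green. Of the red points 64 lie right of 0, up to 2.49 for Ifit1, and 6 left of it, and 15 are on or above the dashed line (14 of the 70 were tested through their KI arrays alone); all blue and green points lie left of 0 and below it.

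Genes outside the interferon lists also rose. B2m, the light chain of MHC class I, was at 10.48 and 10.28 in KI and 9.38 and 9.59 in WT, a rise of 0.89 ± 0.14 (SE, adjusted p = 0.0442). Rnf213, a giant ubiquitin ligase with ATPase activity, was at 6.81 on both KI arrays and at 5.69 and 6.01 in WT, and rose by 0.96 ± 0.14 (adjusted p = 0.0401), with 0.68 on its other probe set. Polr2a, which encodes the catalytic large subunit of RNA polymerase II, was at 8.23 and 8.43 in KI and 7.46 and 7.57 in WT, a rise of 0.82 ± 0.12 (adjusted p = 0.0282). It was the 1 gene that passed among 32 of TBP complexes and core transcription, of which 12 had a positive and 20 a negative difference.

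Gdpd3, a phosphodiesterase of lysophospholipids, was at 5.66 and 6.27 in KI and 4.59 and 4.63 in WT, a rise of 1.35 ± 0.19 (SE, adjusted p = 0.0294). Kcnb2, the voltage-gated potassium channel Kv2.2, was at 5.79 and 5.97 in KI and 5.14 and 5.04 in WT, a rise of 0.79 ± 0.11 (adjusted p = 0.0317). In both genes replicate 97 was the higher KI array, and the genotypes did not overlap. WT levels of Gdpd3, Ifit1, Rtp4, Gbp3 and Eif2ak2 were below the 40th percentile on both WT arrays, so their fold changes start from levels near the low end of the array.

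B2m belongs to the list of MHC class I presentation. Of its 17 genes with a probe set, all 17 had a positive difference, as had 10744 of all 19938 genes with a probe set. The genotypes did not overlap in 13 of the 17 (17.8% of all genes with a probe set), although B2m alone of the 13 tested passed. H2-Q4 was at 5.33 and 5.15 in KI and 4.52 and 4.50 in WT (0.73 ± 0.11, SE; adjusted p = 0.0517), and H2-T24 differed by 0.64 ± 0.11 (adjusted p = 0.0908). H2-Q4 and H2-T24 were below the 40th percentile on both WT arrays, so they were tested through their KI arrays alone. Tapbp, which loads peptides, differed by 0.44 ± 0.12 and Psmb10, an immunoproteasome subunit, by 0.35. The other induced subunits Psmb8 and Psmb9 differed by 0.19 and 0.17. Nlrc5, the class I transactivator, differed by 0.06 on the brightest of its 19 probe sets, and the others are not given here. Sequences of class I heavy chains are alike, and their probe sets may share signal.

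Markers of immune cells were measured beside these groups. Ctss, a lysosomal protease of microglia, was at 6.57 and 6.24 in KI and 5.62 and 5.65 in WT (0.77 ± 0.17, SE; adjusted p = 0.263). Csf1r, the receptor microglia need to survive, differed by 0.36, Cx3cr1 by 0.24, Tmem119 by 0.16 and P2ry12 by -0.12. Of 17 microglial genes with a probe set 15 had a positive difference, 9 did not overlap with KI higher (17.8% of all genes with a probe set) and none passed; at an unadjusted p under 0.05 there were 3 higher, where 2.27% of all tested genes were. The list's median per array, as log2 level minus the WT mean, was 0.12 and 0.24 in KI and -0.005 and 0.005 in WT. Complement genes had 10 of 11 positive differences, 7 did not overlap with KI higher (17.8% of all genes with a probe set) and none passed. C3ar1, a receptor for a complement fragment (0.35 ± 0.13, SE, limma adjusted p = 0.772), was the 1 under an unadjusted p of 0.05. Over all genes with a probe set, 10744 of 19938 differences were positive. Of 16 markers of blood-borne leukocytes 12 were below the 40th percentile on all 4 arrays, and Cd3e and Cd8a differed by 0.18 and 0.05. The part of immune cells in the interferon rise was not tested, and in bulk tissue more cells of a type and more RNA per cell cannot be told apart.

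Genes lower in KI were more varied in role. Stap2, an adaptor in cytokine and kinase signalling, was at 6.14 and 6.24 in KI and 7.30 and 7.14 in WT (-1.03 ± 0.11, SE; adjusted p = 0.00924). Il20rb, a chain of the receptors for interleukins of the IL-20 family, was at 7.01 and 7.16 in KI and 8.34 and 8.13 in WT (-1.15 ± 0.14, SE; adjusted p = 0.0159). Its further probe sets gave -1.19 and -0.53, a wide range of sizes. By the probe sets used, these were the 2 that fell at least 2-fold, and both KI arrays of each stood below both WT arrays.

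Snrpe, the Sm protein E of the spliceosome core, was at 6.85 and 6.59 in KI and 7.75 and 7.65 in WT (-0.98 ± 0.13, SE; adjusted p = 0.0219). It was the 1 gene that passed among the 16 Sm and LSm proteins tested, of which 10 had a negative difference, and Lsm3, Snrpa1 and Snrpb differed by -0.24 to -0.19. Snord14e, a box C/D small nucleolar RNA encoded in an intron of Hspa8, was at 7.40 and 7.60 in KI and 8.56 and 8.36 in WT (-0.96 ± 0.12, SE; adjusted p = 0.0159). Its host Hspa8, looked up after this value was seen, differed by -0.04 ± 0.11 on the brightest of its 3 probe sets, and the others are not given here.

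Nab2, a corepressor of EGR transcription factors, was at 7.78 and 7.92 in KI and 8.63 and 8.73 in WT (-0.83 ± 0.11, SE; adjusted p = 0.0162). Sbk1, a brain-enriched serine/threonine kinase, was at 7.77 and 8.05 in KI against 8.78 and 8.89 in WT, and Cep76, a protein that limits centriole duplication, at 7.25 and 7.48 against 8.27 and 8.28. Creg1, a secreted glycoprotein of lysosomes, was at 8.19 and 8.24 against 8.88 and 8.90. In all 3 both KI arrays lay below both WT arrays, with differences of -0.92 ± 0.13 for Sbk1, -0.91 ± 0.13 for Cep76 and -0.67 ± 0.10 for Creg1 (SE; limma adjusted p = 0.0247, 0.0247 and 0.0442). In 7 of the 8 genes that fell, replicate 94 was the lower KI array.

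Genes close below the threshold included more falls. Inpp5a, a phosphatase of inositol trisphosphate that is abundant in Purkinje cells, was at 9.24 and 9.46 in KI and 10.04 and 10.05 in WT (-0.70 ± 0.11, SE; adjusted p = 0.0612). Dusp5, a nuclear phosphatase of ERK, was at 6.98 and 7.28 in KI and 8.27 and 8.01 in WT (-1.01 ± 0.17, SE; adjusted p = 0.0668). Plxdc1, Cep72 and Car9 differed by -0.70, -0.69 and -0.63 (adjusted p from 0.0847 to 0.0971). Ifi203, a DNA-binding member of the p200 family that is not on the interferon lists, was at 5.73 and 5.75 in KI and 4.35 and 4.81 in WT (1.16 ± 0.20, SE; adjusted p = 0.0915). With H2-Q4 and H2-T24 these make the 8 genes between 0.05 and 0.1, so that 36 genes (0.264%) were under 0.1. Ifi203, H2-Q4 and H2-T24 were tested through their KI arrays alone, and Car9 through its WT arrays alone.

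All 15 Purkinje cell genes that were measured had a lower mean in KI, though none passed the test. Pcp2, a modulator of G-protein signalling found in Purkinje and retinal cells, was at 7.56 and 8.02 in KI and 8.53 and 8.84 in WT. Rgs8, which shortens G-protein signals, was at 9.32 and 9.62 against 10.24 and 10.14, and Calb1, the calcium buffer calbindin, at 10.82 and 10.84 against 11.54 and 11.26. In all 3 the groups did not overlap, and the differences were -0.89 ± 0.17, -0.73 ± 0.14 and -0.57 ± 0.13 (SE; adjusted p = 0.148, 0.153 and 0.31 in limma). Dner, a Notch ligand of Purkinje dendrites, differed by -0.52 ± 0.12 (adjusted p = 0.31).

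Of the 15 Purkinje genes with a probe set, all tested, 15 had a negative difference, where 52.5% of all tested genes did, and 11 had both KI arrays below both WT arrays, against 20% of all. Their median was -0.52 against -0.01 over all tested genes. At an unadjusted p under 0.05 there were 8 lower, where 3.06% of all tested genes were. After Pcp2, the largest differences were those of Gng13, a G-protein subunit (-0.79), and Car8, a binding partner of the IP3 receptor (-0.74). Ppp1r17, a phosphatase inhibitor, differed by -0.70, the calcium pump Atp2a3 by -0.61, the scaffold Homer3 by -0.50 and the glutamate transporter Slc1a6 by -0.41. The transcription factors Rora, Skor2 and Foxp2 differed by -0.15, -0.10 and -0.06. The size rested in part on replicate 94: the list's median was -0.34 without that array, with 13 of 15 negative, and -0.64 without replicate 97, with 15 of 15. Fewer Purkinje cells, a smaller share of cortex in the tissue and less RNA per cell cannot be told apart in these bulk samples.

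**Figure D3:**
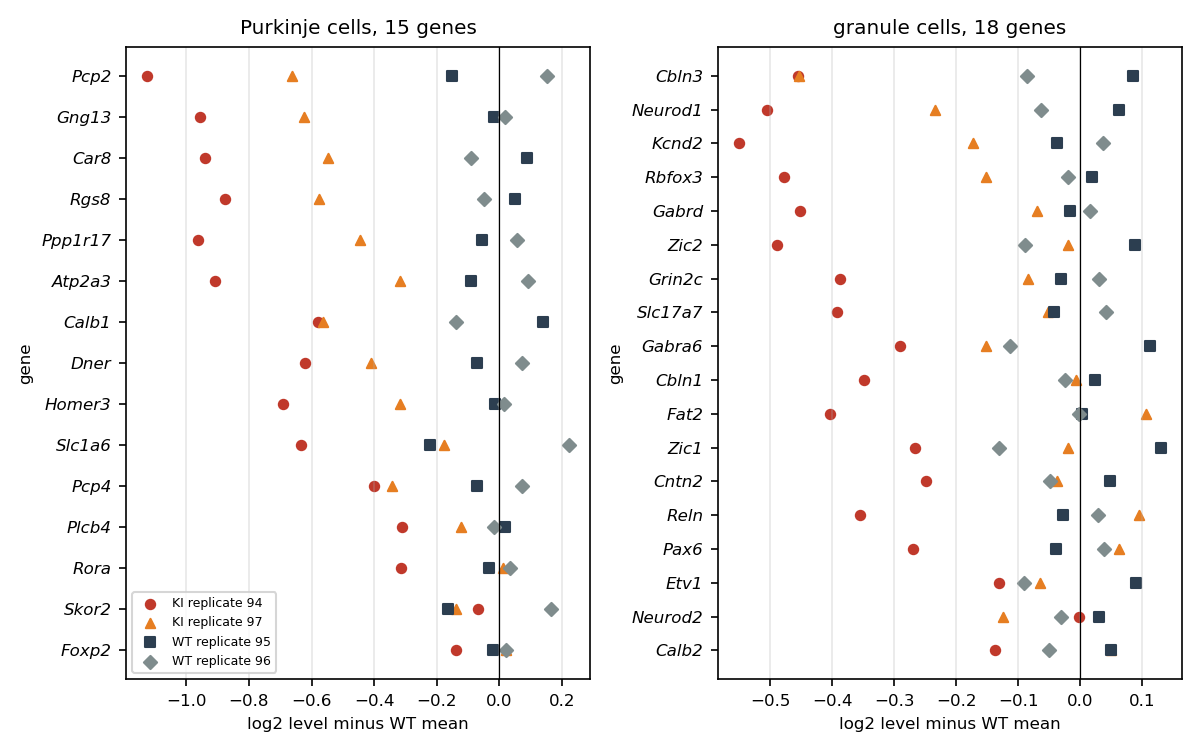
Log2 level minus the mean of the WT arrays for 15 Purkinje cell genes (left) and 18 granule cell genes (right), one row per gene and one point per cerebellum array. KI replicate 94 (red) lies left of both WT arrays in 14 Purkinje and 17 granule rows, KI replicate 97 (orange) in 11 and 9.

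Granule cell genes differed less. All 18 had a negative difference, and 8 did not overlap, where 20% of all tested genes were lower without overlap. At an unadjusted p under 0.05 there were 2 (3.06% of all tested genes), none passed, and the median was -0.20. Cbln3, a partner of the synaptic organiser Cbln1, was at 10.91 on both KI arrays and at 11.45 and 11.28 in WT (-0.45 ± 0.13, SE; adjusted p = 0.551). Kcnd2, the A-type channel Kv4.2, differed by -0.36 ± 0.14 and Neurod1, a granule cell transcription factor, by -0.37 ± 0.17 (adjusted p = 0.824 and 0.934). Gabra6, a receptor subunit of mature granule cells, differed by -0.22. Without replicate 94 the median was -0.06, with 14 of 18 negative, and without replicate 97 it was -0.37.

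Among interneuron genes 9 of 12 differences were negative (52.5% of all tested genes), with a median of -0.15. None passed and 2, Eomes and Pvalb, were lower at an unadjusted p under 0.05, where 3.06% of all tested genes were. Without replicate 94 the list's median was -0.13, with 7 of 12 negative, and without replicate 97 it was -0.26, with 9 of 12. Eomes, a transcription factor of unipolar brush cells, was at 5.61 and 5.85 in KI and 7.42 and 6.47 in WT. The WT arrays were far apart, and the difference of -1.22 ± 0.25 (SE, adjusted p = 0.205) passed without WT replicate 96 (-1.69, adjusted p = 0.0174). Pvalb, a calcium buffer of molecular layer interneurons and Purkinje cells, differed by -0.57 ± 0.13, while Gad1 and Gad2, which make GABA, differed by -0.07 and 0.19. Grm4, the presynaptic glutamate receptor of parallel fibres, was at 8.29 and 8.73 in KI and 9.40 and 9.36 in WT (-0.87 ± 0.16, SE; adjusted p = 0.118).

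KI replicate 94 also stood apart from KI replicate 97 in genes of neighbouring tissue. The median of the brainstem list, as log2 level minus the WT mean, was 0.41 on replicate 94 and -0.005 on replicate 97, and that of the choroid plexus list 0.41 and 0.02. On WT replicates 95 and 96 the brainstem median was -0.05 and 0.05. The choroid plexus median was -0.16 and 0.16 there, so the WT arrays differed in this list too. The myelin list was at 0.15 and -0.22 on KI replicates 94 and 97. Slc6a5 and Glra1, the transporter and a receptor subunit for glycine, were singled out after their values were seen. Neither is on the brainstem list: Slc6a5 is on the interneuron list and Glra1 on that of GABA and glycine receptors. Slc6a5 was at 9.05 on replicate 94 and from 7.68 to 7.98 on the other arrays, and Glra1 at 8.72 against 6.90 to 7.21. Of the 37 antiviral effectors tested, 28 were higher on replicate 94 than on replicate 97, where 47.9% of all tested genes were. The part of the tissue content of replicate 94 in the lower neuronal genes was not tested. The values without replicate 94 are given above for the Purkinje, granule and interneuron lists.

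**Figure D4:**
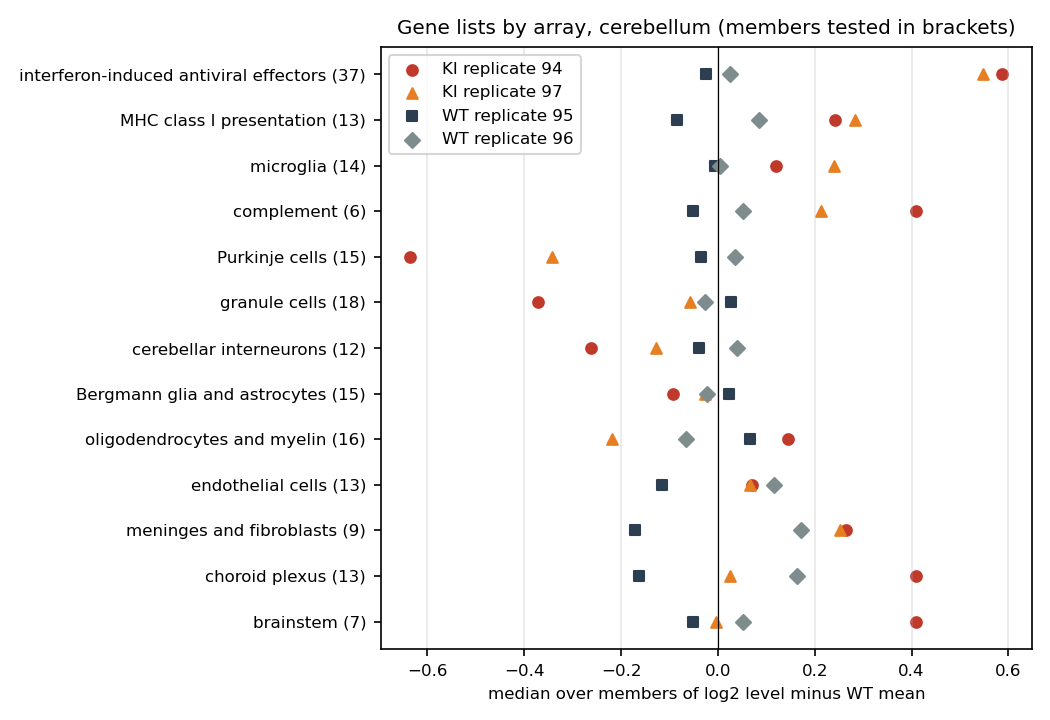
Median over tested list members of log2 level minus the mean of the WT arrays, for 13 lists (number of members in brackets) and one point per cerebellum array. The WT points mirror each other by construction. Both KI points are high for antiviral effectors (0.59 and 0.55, a list with 12 members tested through their KI arrays alone) and low for Purkinje cells (-0.64 and -0.34). Brainstem and choroid plexus are highest on KI replicate 94 (0.41 each). For choroid plexus, WT replicates 95 and 96 lie at -0.16 and 0.16 and KI replicate 97 at 0.02.

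Tbp, the gene altered in these mice, was at 7.68 and 7.52 in KI and 7.85 and 7.71 in WT (-0.18 ± 0.12, SE; adjusted p = 0.998). The probe set reads RNA of both alleles, so it does not check the genotype. Of 7 genes linked to SCA17 in other work and measured here, Tbp included, none passed and 6 had a negative difference, where 52.5% of all tested genes did. At an unadjusted p under 0.05, 2 were lower, Inpp5a (above) and Nfya, where 3.06% of all tested genes were. Nfya, a subunit of a transcription factor that binds CCAAT boxes, differed by -0.30 ± 0.13 (SE, limma adjusted p = 0.914). Manf, a secreted factor of the endoplasmic reticulum, differed by -0.05 ± 0.16, and the small heat shock protein Hspb1 by -0.05 ± 0.12, with 0.02 on its other probe set. Of 19 chaperones of the endoplasmic reticulum none passed, and none was under an unadjusted p of 0.05. Among 16 cytosolic chaperones none passed and 3 were lower at an unadjusted p under 0.05, where 3.06% of all tested genes were. These were Cryab (-0.46 ± 0.10), Bag3 (-0.34 ± 0.13) and Dnajb1 (-0.32 ± 0.13, all ± SE, limma adjusted p from 0.31 to 0.889).

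Of the 16 immediate early genes, which neurons switch on with activity, 15 were tested and Nab2 passed. At an unadjusted p under 0.05, 5 were lower, Nab2 included, where 3.06% of all tested genes were. Nr4a2, a nuclear receptor, was at 6.44 and 6.88 in KI and 7.52 and 7.66 in WT (-0.93 ± 0.20, SE; adjusted p = 0.25). Fos differed by -0.49 ± 0.13 and Dusp1 by -0.76 ± 0.21 (adjusted p = 0.451 and 0.495). The list as a whole had 8 positive and 7 negative differences. Among 24 ataxia genes tested none passed. Car8 and Cacna1g, a T-type calcium channel (-0.39 ± 0.16, SE, limma adjusted p = 0.86), were lower at an unadjusted p under 0.05, where 3.06% of all tested genes were. Cacna1a, Atxn1 and Atxn2 differed by -0.17, 0.03 and -0.03.

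The muscle arrays show which of the 28 genes moved there too. Of the 20 that rose, all 20 had a positive difference in muscle, and 16 of the 19 tested there passed, where 2.66% of all genes tested in muscle rose and 3.55% passed in either direction. Both tissues of a gene share 1 estimate of spread from the same fit, so a call in muscle is not independent of the call in cerebellum. Signs over all genes in muscle were not counted, so the numbers of positive and negative differences in muscle are not used as support. Usp18 rose by 1.11 ± 0.14 in muscle, Ifit1 by 1.56 ± 0.25 and Gdpd3 by 2.97 ± 0.19 (SE; adjusted p = 0.00628, 0.0147 and 0.000861 in limma). Gdpd3 was below the 40th percentile on both WT muscle arrays and was tested in muscle through its KI arrays alone. Lgals3bp differed by 0.56 ± 0.20 in muscle (limma adjusted p = 0.156), and the difference between the tissues, -1.73 ± 0.28, had an adjusted p of 0.0599. Of the 8 that fell, 5 had a negative difference in muscle and 2 passed, Snrpe (-0.79 ± 0.13) and Snord14e (-0.61 ± 0.12). The test of the difference between tissues passed for 21 of 14708 genes (0.143%), and among the 28 for Stap2, which differed by 0.25 ± 0.11 in muscle (difference between tissues 1.28 ± 0.16, SE; adjusted p = 0.035). At an unadjusted p under 0.05 it gave 2033 genes (13.8%). Without 1 array it gave 0 genes (KI cerebellum 94, WT cerebellum 95, WT cerebellum 96 or KI muscle 97), 1 (KI cerebellum 97), 3 (WT muscle 95 or 96) or 16 (KI muscle 94). If the recurring numbers are animals, both tissues of a mouse are in these values, and no source says so.

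**Figure D5:**
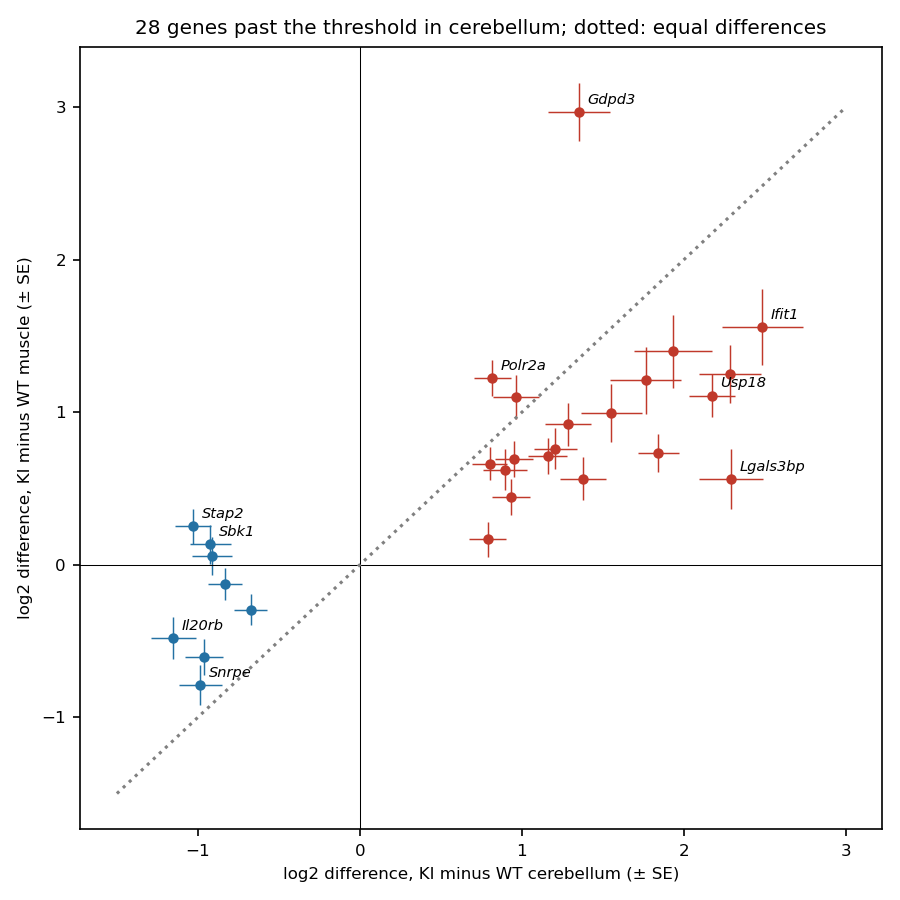
KI minus WT log2 difference in cerebellum (x) and in muscle (y), with standard errors, for the 28 genes past the threshold in cerebellum; red rose and blue fell, and the dotted line marks equal differences. All red points lie above 0 on both axes, with Gdpd3 highest at 2.97 in muscle, and Stap2 lies at -1.03 in cerebellum and 0.25 in muscle. Gdpd3 was tested in both tissues through its KI arrays alone.

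With 2 arrays a group, most calls needed all 4 cerebellum arrays. Of the 28 genes, 3 passed without KI replicate 94, 6 without KI replicate 97, 4 without WT replicate 95 and 4 without WT replicate 96, where Eomes passed as well. Usp18, Ifitm3 and Oasl2 passed in every one of these fits (adjusted p from 0.00234 to 0.0428). Lgals3bp was lost without KI replicate 94 (0.0602), and Ifi27 and Irgm1 passed without KI replicate 97 alone (0.0331). The rest, with all 8 genes that fell, passed in none of the fits they entered, with adjusted p from 0.0591 to 0.555. Ifit1, Rtp4, Gbp3, Eif2ak2 and Gdpd3 left the test when a KI array was out. An unadjusted limma p under 0.05 was reached by 309 genes that were higher and 418 that were lower. That is 727 in all (5.33%), where chance alone gives 5%.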

How the data were processed

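The arrays were of the Affymetrix Mouse Gene 1.0 ST type. The authors deposited 1 log2 value per probe set and array, and the submitters' processing notes name GCOS and RMA. RMA corrects background, brings arrays to a common distribution and summarises probes, so levels are relative within the set of arrays normalised together; no source used here gives that set, the versions or the genome build. Of 35556 probe sets, 21789 carried 1 gene symbol in the platform annotation, 1621 several and 12146 none, and they named 19938 genes, 19856 of them in the RefSeq gene table (GRCm38.p6), which gave chromosomes.

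A gene was tested when it reached the array's own 40th percentile over probe sets on at least 2 of the 4 cerebellum arrays (87 genes through KI arrays alone, 43 through WT arrays alone). One limma 3.58.1 model in R 4.3.3 with a mean for each of 4 genotype and tissue groups was fitted, with eBayes (4 residual and 5.30 prior degrees of freedom) and Benjamini-Hochberg adjustment over all tested genes. Named genes are Tbp, Manf, Hspb1 and Inpp5a, all genes that passed, those with adjusted p from 0.05 to 0.1, interferon members with an unadjusted p under 0.05, and per list up to 4 members with the smallest p; other list members are given as examples and were chosen after their values were seen. An item of the rule is not reported here. The members and gene lists were chosen with earlier results of these data known. The procedure was tested on simulated data.

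Cerebellum array medians lay between 5.46 and 5.51. Arrays correlated over probe sets with r = 0.986 in KI and 0.989 in WT, and with the other genotype from 0.983 to 0.989. Xist was between 10.28 and 10.44 on the cerebellum arrays.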

Additional observations from a re-analysis of the deposited data

Results flagged for a closer look

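For 2 of the genes named above the KI minus WT effect differed between the tissues by the test of the difference itself. The effect on Stap2 was higher in muscle than in the cerebellum by 1.28 ± 0.16 log2 units (SE, limma adjusted p = 0.035). Its level was lower in both KI cerebellum arrays, and the muscle difference was 0.25 ± 0.11. The effect on Car9, a carbonic anhydrase at the cell surface, was higher in muscle by 1.14 ± 0.16 (SE, adjusted p = 0.035). Car9 was at 4.64 and 4.73 in KI cerebellum against 5.22 and 5.41 in WT, a difference of -0.63 ± 0.11. In muscle it differed by 0.52 ± 0.11. Car9 was below the 40th percentile on both KI cerebellum arrays and on both WT muscle arrays. It was thus tested through WT arrays alone in cerebellum and KI arrays alone in muscle, and both differences involve levels near the low end of the array.

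Among the 6764 probe sets that carried no single gene symbol and were bright enough to be tested, limma gave 1 with an adjusted p under 0.05, higher in KI cerebellum, and 302 had an unadjusted p under 0.05. These probe sets are not used in the comparison.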

How the results depend on the processing

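Of the 28 genes, 18 passed with no filter on low values, while 6 genes passed over all probe sets, 4 of them among the 28; that alternative was chosen after seeing the data, and both test more features. Leaving out each replicate in turn gave 3 to 29 genes, and 3 to 16 interferon members in place of 15. The other alternatives gave 25 to 36 genes and 13 to 17 interferon members. The test of the difference between tissues passed for 21 genes, and for 3 with no filter, 38 with a 60th percentile filter, 63 with trended and robust variances, 108 at an adjusted p of 0.1 and 0 to 16 without 1 replicate; the cause was not tested. With the replicate number as a random block the counts were 27 genes, 15 interferon members and 18 for the difference, and B2m was lost. No source ties the numbers to animals, and they were not taken to pair the arrays. Deviations from the group means in cerebellum and muscle correlated with r = 0.06 in KI and -0.10 in WT over 14708 genes. The correlation within a number was -0.07. Such low values cannot tell whether the numbers are animals, because different tissues of a mouse need not share these deviations. B2m, Polr2a, Creg1 and Kcnb2 were also lost with the cerebellum arrays alone. Over 201 named genes and 3295 refits, 3154 kept their side of the threshold, 121 lost it and 20 gained it, and no called gene changed sign. The median of all tested genes moved between -0.03 and 0.01. Signal near background limits the dim members, and 2 arrays a group limit all p-values.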

Other observations

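Several gene groups of the cerebellum gave no gene past the threshold. Bergmann glia and astrocyte genes had 11 of 15 negative differences with a median of -0.04, and Slc6a11, a GABA transporter of astrocytes, at 10.21 and 9.87 in KI and 9.78 and 9.50 in WT (0.40 ± 0.16, SE; limma adjusted p = 0.889), was the 1 under an unadjusted p of 0.05. Myelin genes had 8 positive and 8 negative differences; Mobp was at 8.36 on KI replicate 94, 7.67 on KI replicate 97, 8.44 and 8.39 in WT. Sterol synthesis genes had a median of 0.10 above the WT mean on KI replicate 94 and -0.20 on KI replicate 97. Respiratory chain genes differed by a median of 0.02.

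Among clock genes, Arntl, the partner of CLOCK, was at 6.74 and 6.79 in KI and 7.24 and 7.33 in WT (-0.52 ± 0.14, SE; adjusted p = 0.495), the 1 of 15 under an unadjusted p of 0.05. Dbp, an output gene of the clock, differed by 0.11 ± 0.11. The 28 genes that passed lie on 16 chromosomes. Ifit3 and Ifit1 lie close on chromosome 19, with 3 protein-coding genes between them. Chromosome 17, which carries Tbp, held 2 of the 28 (Stap2 and Eif2ak2) and 641 of the tested genes (4.70%).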
